A study of Homo sapiens with 6 samples.

Results

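The MYC family and its network of dimerization partners were examined in a taxane-resistant prostate cancer subclone and in the cell line it came from. The 10 genes are the MYC genes themselves (MYC, MYCN, MYCL), their partner MAX, the MAX-binding repressors (MXD1, MXD3, MXD4, MXI1, MNT) and MLX, the related partner of the glucose-sensing arm. They were found by gene symbol among the 58735 genes of the count and FPKM tables, and each symbol matched 1 row. C4-2B is an established line of castration resistant prostate cancer, and RC4-2B is a single subclone of it, selected over 4 months by 72 h cycles of cabazitaxel (CBZ) that rose from 0.1 nM to 20 nM. Both carry the same parental background, both were grown without a drug named for the RNA samples, and total RNA was sequenced from 3 biological replicates of each. RC4-2B is 1 subclone, so resistance to CBZ and the difference between a clone and its parent cannot be told apart.

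MYC proteins are transcription factors that bind DNA only as dimers with MAX, at a short palindrome called the E-box, and raise the expression of genes for ribosomes, metabolism and division. MXD proteins, MXI1 and MNT compete for MAX, bind the same E-box and recruit a histone deacetylase complex that represses transcription. MLX takes the place of MAX in a parallel arm, where its partners MLXIP and MLXIPL respond to glucose. In prostate cancer, MYC is known for frequent gain and overexpression, and MYCN for its association with neuroendocrine disease.

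The E-box, CACGTG on both strands because it is a palindrome, was searched for in the RefSeq promoter windows of GRCh38.p14, which run from 250 bases before to 50 bases after each start site. It was in a window of 2396 of 27305 gene symbols, or 8.77%. Among the 9 network genes with a window (no entry for MYC), it was in 3, or 33.3%: MXD4, MNT and MLX. That share rests on 3 genes, and the 27305 symbols were not selected for expression. In the cofactor and target lists described below, the share ranged from 0% to 77.8%. The E-box was also in a window of SLC1A5 and SLC7A5, the amino acid transporter genes whose expression fell in RC4-2B. The sites of these 5 genes are shown because the E-box is the sequence that the network binds. WDR5 and ARRDC4, named below, also held an E-box and are not shown. In the metabolism and translation list that holds both transporters, 14 of 18 genes with a window held it. The E-box is in capitals, with 12 bases on each side, and each strand is read 5′ to 3′ in the direction of the gene.
MXD4: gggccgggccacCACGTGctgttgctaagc
MNT: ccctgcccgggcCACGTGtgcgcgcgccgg
MLX: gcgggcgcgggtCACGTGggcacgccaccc
SLC1A5: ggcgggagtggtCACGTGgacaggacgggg
SLC7A5: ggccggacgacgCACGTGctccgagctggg
The MXD4 site lies at chr4:2262330-2262359 on the minus strand, with the E-box starting 238 bases before the start site. The MNT site lies at chr17:2401236-2401265 on the minus strand, 193 bases before. The MLX site lies at chr17:42567038-42567067 on the plus strand, 50 bases before. The SLC1A5 site lies at chr19:46787326-46787355 and the SLC7A5 site at chr16:87869620-87869649, both on the minus strand, 50 and 130 bases before the start. These matches describe the letters of the windows, and binding was not measured.

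Gene counts summed to between 15707134 and 18052517 per library, and 3 counts, taken as the floor of detection, corresponded to 0.170 to 0.188 CPM (counts relative to the scaled library total). This floor covers counting error only. One library stood apart. Across 8481 well-expressed genes, log2 differences between a pair of libraries had a standard deviation of 0.125 to 0.188 within C4-2B and of 0.207 between RC4-2B replicates 1 and 3, but of 0.591 and 0.515 between RC4-2B replicate 2 and those. The difference followed the GC content of the transcripts, so results are also given without that library and with a correction for GC content. Prostate luminal markers were present in the cells, as their label says, with 7 of 7 past the filter on low counts and a summed level of 3228 to 3307 CPM in C4-2B libraries and 2144 to 2542 CPM in RC4-2B libraries. Of these 7, 2 had a higher and 5 a lower fitted level in RC4-2B, with a median log2 difference of -0.05 and a range of -4.33 to 0.40, and 2 passed the test, both lower, against 3, all lower, without RC4-2B replicate 2 or with GC correction. The largest of these falls was that of KLK3, which encodes prostate-specific antigen, from 974 ± 55.1 to 48.4 ± 14.9 CPM (SD, n = 3; adjusted p = 0.000154, edgeR). Of 7 neuroendocrine markers, 3 had at most 3 counts in every library, CHGA was at 0 to 0.283 CPM and SYP at 0.570 to 2.49 CPM. The 7 together summed to 8.65 to 10.3 CPM in C4-2B and 7.24 to 10.5 CPM in RC4-2B, and the highest value was 1.75 FPKM. The 2 tested ones had log2 differences of -0.46 and 0.01, and 0 were called. The highest value of a leukocyte marker in any library was 0.117 FPKM, of an endothelial one 0.707 FPKM and of a fibroblast one 3.33 FPKM. Of 4 fibroblast markers, COL1A2 and DCN had 0 counts in all libraries, and COL1A1 and COL3A1 had log2 differences of 0.30 and 1.69. Neither passed the test with all libraries, and 2 of the 4 were called higher both without RC4-2B replicate 2 and with GC correction. Their summed level was 21.6 to 25.8 CPM in C4-2B and 24.2 to 38.02 CPM in RC4-2B. The single tested endothelial marker, at -0.84, was called lower without RC4-2B replicate 2. Of all tested genes, 1.98% were called with all libraries, 12.5% without RC4-2B replicate 2 and 7.61% with GC correction. The part of these markers in the network values was not tested.

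Of the 10 network genes, 9 were detected and none passed the test between the cell lines. In the quasi-likelihood test of edgeR, with p-values adjusted by Benjamini-Hochberg over 15054 tested genes, 0 of the 9 tested members had an adjusted p-value under 0.05, and 0 had an unadjusted one, where 298 of all tested genes, or 1.98%, were called and 3220, or 21.4%, had an unadjusted p-value under 0.05. DESeq2 called 0 members after adjustment and gave 1, MYC, an unadjusted p-value under 0.05 (0.0458). The fitted difference was above 0 for 3 members (MYCL, MXI1 and MLX) and below 0 for 6. Their median log2 fold change (RC4-2B over C4-2B, log2FC from here on) was -0.08, and that of all tested genes was 0.0063. Groups of 3 libraries did not overlap in CPM for 1 of the 9, MYC, against 34.1% of all tested genes. The p-values measure the spread between libraries labelled as biological replicates, and an exact permutation test of 3 against 3 libraries cannot give less than 0.1.

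Per length, MYC was the most abundant member in both cell lines. On the FPKM scale (reads per gene scaled to length and library depth), it averaged 85.5 ± 6.18 in C4-2B and 69.1 ± 10.8 in RC4-2B (SD, n = 3), and ranked 450 and 536 among all genes. In C4-2B the order was MYC, MLX (24.4 ± 1.21), MXD4 (13.8 ± 1.07), MAX (13.1 ± 0.994), MXI1 (7.35 ± 0.416), MXD3 (5.71 ± 0.771), MNT (4.51 ± 0.182), MYCL (1.93 ± 0.253), MXD1 (1.18 ± 0.131) and MYCN. The only neighbours in this order whose libraries overlapped were MXD4 and MAX. In RC4-2B the order was the same down to MXI1, and MNT (4.32 ± 1.31) then stood before MXD3 (3.97 ± 2.15). There, MXD4 overlapped MAX, MAX overlapped MXI1, MNT overlapped MXD3, and MXD3 overlapped MYCL. MXD1 stayed the lowest of the detected genes in each line, at 1.16 ± 0.349 FPKM in RC4-2B.

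**Figure D1:**
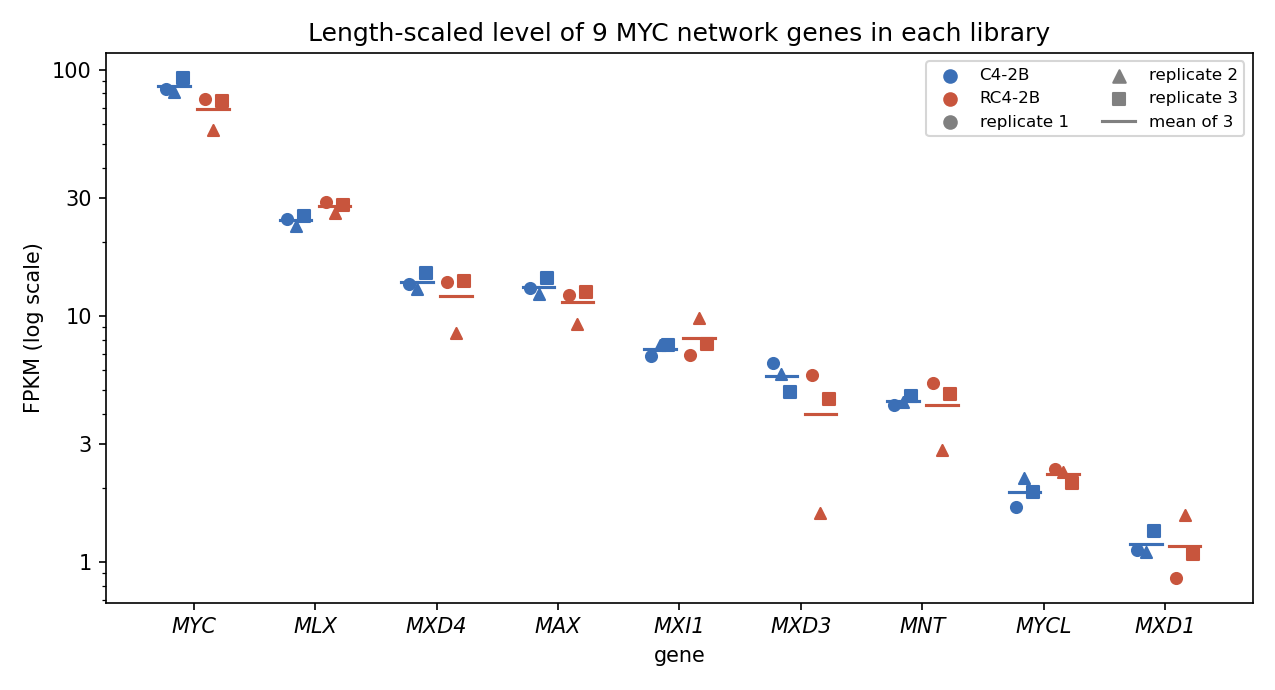
FPKM of the 9 detected network genes in each library, on a log axis, with C4-2B in blue, RC4-2B in red, a marker shape for each replicate and a line at each mean of 3. MYC lies above every other member in all 6 libraries, and the RC4-2B replicate 2 triangles lie lowest in their group for MXD3, MNT, MXD4, MAX, MYC and MLX and highest for MXI1 and MXD1.

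MYC encodes the broadly expressed member of the family and lies at chr8:127735434-127741434 on the plus strand (GRCh38, as are all positions of genes given here). Its CPM was 279, 272 and 308 in the C4-2B libraries and 255, 182 and 248 in the RC4-2B libraries. All 3 RC4-2B libraries were below all 3 C4-2B libraries, and the lowest was RC4-2B replicate 2. Its mean CPM was 286 ± 18.9 (SD, n = 3) in the parental line and 228 ± 40.4 (SD, n = 3) in the subclone. The log2FC was -0.33 (standard error, SE, 0.14, 95% confidence interval -0.65 to 0.00078), or 0.797-fold, with an adjusted p-value of 0.234 in edgeR's test and an exact two-sided permutation p of 0.1, the smallest that 3 against 3 libraries allow. Without RC4-2B replicate 2 the log2FC was -0.19 (interval -0.36 to -0.016, adjusted p = 0.143, edgeR), and with GC correction it was -0.36 (interval -0.65 to -0.071, adjusted p = 0.119, edgeR). Across all settings it lay between -0.41 and -0.19, with adjusted p-values of 0.0644 to 0.506, so the direction was the same in each and the threshold was passed in none. The antisense gene CASC11, whose exons share 194 bases with those of MYC in GENCODE 44, had 5 to 14 counts per library against 3189 to 5405 for MYC.

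MYCN, the family member of neural tissue and neuroendocrine tumours, lies at chr2:15940564-15947007 on the plus strand and had 0 counts in all 6 libraries, as did its antisense gene MYCNOS. A count of 0 allows up to 0.170 to 0.188 CPM at these depths. MYCL, at chr1:39895426-39902256 on the minus strand, is the member first found in small cell lung cancer. It was at 9.49, 12.4 and 10.8 CPM in C4-2B, against 13.5, 12.5 and 11.7 CPM in RC4-2B. The groups overlapped, since C4-2B replicate 2 was above RC4-2B replicate 3. The means were 10.9 ± 1.46 and 12.6 ± 0.880 CPM (SD, n = 3), and the log2FC was 0.21 (SE 0.16, interval -0.16 to 0.58, adjusted p = 0.437, edgeR). With GC correction it was 0.37 (adjusted p = 0.187, edgeR), and over all settings 0.12 to 0.37.

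MAX, the partner shared by MYC and the repressors, lies at chr14:65006174-65102695 on the minus strand. Its CPM was 64.1, 60.7 and 69.6 in C4-2B, against 60.4, 44.01 and 61.2 in RC4-2B. RC4-2B replicate 2 was the lowest library, while replicate 3 was above C4-2B replicate 2, so the groups overlapped. The log2FC was -0.23 (SE 0.15, interval -0.58 to 0.11, adjusted p = 0.372, edgeR), and -0.09 (adjusted p = 0.555, edgeR) without RC4-2B replicate 2. FNTB, on the opposite strand, shares 822 exonic bases with MAX and had 149 to 214 counts against 772 to 1223 for MAX. Whether the counts used strand is not given in the sources used here, so reads from these overlaps cannot be assigned.

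The MXD genes encode repressors that are typically raised as cells leave the cycle and differentiate, apart from MXD3, which is linked to dividing cells. MXD4, at chr4:2247432-2262294 on the minus strand, had the highest mean FPKM of them in each line, with 40.4% to 44.7% of the summed FPKM of MXD1, MXD3, MXD4, MXI1 and MNT in C4-2B and 35.1% to 43.2% in RC4-2B, although in RC4-2B replicate 2 MXI1 (9.81 FPKM) was above MXD4 (8.52 FPKM). Its CPM was 106, 102 and 117 in C4-2B, against 108, 64.2 and 108 in RC4-2B. Replicates 1 and 3 of RC4-2B lay within the range of C4-2B, and replicate 2 lay far below it. The log2FC was -0.21 (SE 0.20, interval -0.66 to 0.24, adjusted p = 0.516, edgeR), and -0.0048 without RC4-2B replicate 2 (adjusted p = 0.98, edgeR).

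MXD3, at chr5:177301461-177312757 on the minus strand, had the widest confidence interval of the 9 tested members. Its CPM was 36.9, 33.7 and 27.9 in C4-2B, against 33.1, 8.67 and 26.3 in RC4-2B. RC4-2B replicate 1 lay within the C4-2B range, replicate 3 just under it, and replicate 2, with 152 counts, well under every other library. The log2FC of -0.54 had an SE of 0.40 (interval -1.45 to 0.37, adjusted p = 0.426, edgeR), and it was -0.15 (adjusted p = 0.508, edgeR) without replicate 2. MXD3 shares 926 exonic bases with RAB24 on the same strand, which had 153, 24 and 103 counts in RC4-2B, and 1148 with PRELID1 on the opposite strand, which had 2440, 1602 and 2379. Both neighbours were also lowest in RC4-2B replicate 2, and how reads in these overlaps were assigned was not tested.

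MXD1, the repressor classically induced in differentiating cells, lies at chr2:69897688-69942945 on the plus strand. It was at 7.94, 7.81 and 9.39 CPM in C4-2B, against 6.13, 10.5 and 7.58 CPM in RC4-2B. Here RC4-2B replicate 2 was the highest of all libraries and replicate 1 the lowest. The log2FC was -0.05 (SE 0.22, interval -0.56 to 0.46, adjusted p = 0.896, edgeR). It was -0.29 (adjusted p = 0.312, edgeR) without RC4-2B replicate 2, -0.20 (adjusted p = 0.503, edgeR) with GC correction and 0.11 (adjusted p = 0.727, edgeR) without RC4-2B replicate 1. MXD1 shares 237 exonic bases on its own strand with SNRNP27, which had 206 to 316 counts against 98 to 184 for MXD1. MXI1, also known as MXD2, at chr10:110207605-110287365 on the plus strand, was at 35.4, 39.2 and 38.8 CPM in C4-2B, against 35.8, 48.3 and 39.1 CPM in RC4-2B. Again replicate 2 of RC4-2B was the highest, and the groups overlapped. The log2FC was 0.12 (SE 0.14, interval -0.20 to 0.44, adjusted p = 0.616, edgeR), and -0.01 (adjusted p = 0.95, edgeR) without that library.

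MNT, the broadly expressed repressor that pairs with MAX or MLX, had a fitted difference whose sign depended on the processing. It lies at chr17:2384060-2401118 on the minus strand. Its CPM was 42.5, 43.8 and 45.6 in C4-2B, against 52.0, 26.5 and 46.3 in RC4-2B. RC4-2B replicates 1 and 3 were above all C4-2B libraries, and replicate 2 was below them all. The log2FC was -0.08 (SE 0.22, interval -0.59 to 0.43, adjusted p = 0.841, edgeR) with all libraries. Without replicate 2 it was 0.16 (interval -0.04 to 0.36, adjusted p = 0.295), with GC correction 0.21 (interval -0.0078 to 0.42, adjusted p = 0.214), and with both 0.27 (adjusted p = 0.0553, edgeR), a setting chosen after seeing the data.

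**Figure D2:**
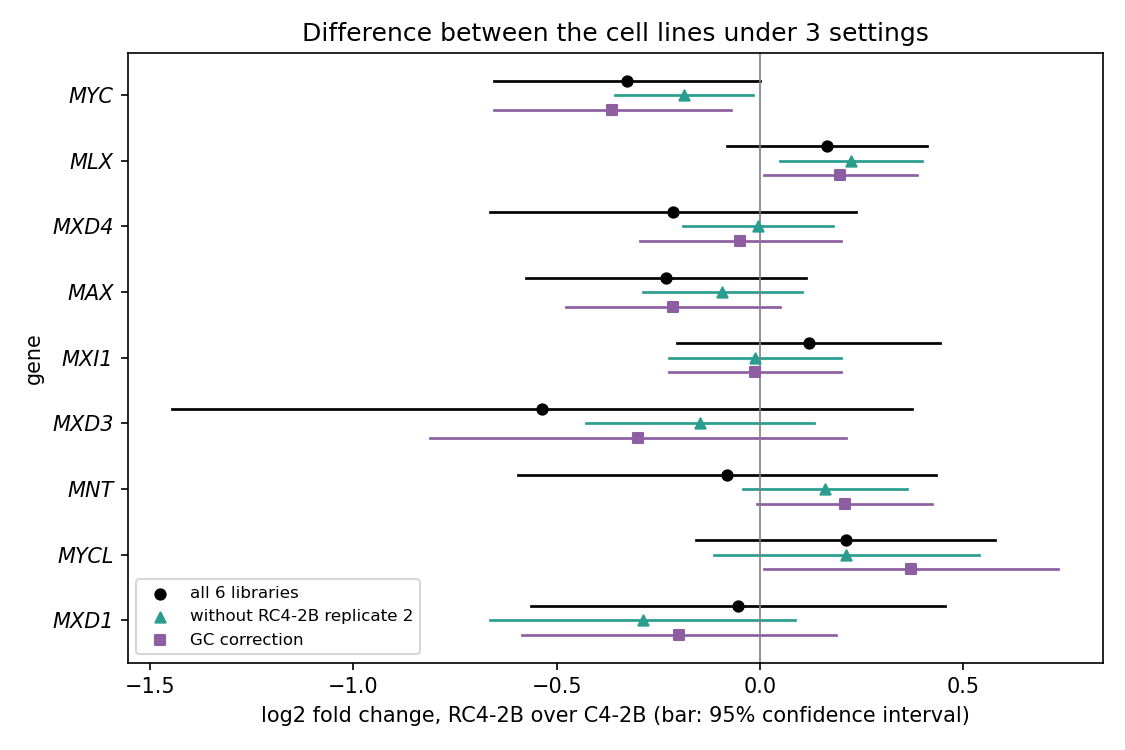
Log2FC of RC4-2B over C4-2B for the 9 tested network genes, with 95% confidence intervals from edgeR, for all 6 libraries (black circles), without RC4-2B replicate 2 (green triangles) and with GC correction (purple squares). The MYC points lie at -0.33, -0.19 and -0.36 and the MLX points at 0.16, 0.22 and 0.20, while the MNT points lie on both sides of 0.

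The level of the network genes in RC4-2B replicate 2 varied with their GC content. Relative to the mean of replicates 1 and 3, on the log2 CPM scale, replicate 2 was lowest for MXD3 (-1.75), MNT (-0.88) and MXD4 (-0.75), whose longest transcripts have 61.3%, 61.3% and 57.6% GC. It was highest for MXD1 (0.61) and MXI1 (0.37), with 42.9% and 43.7% GC. MYC (-0.47, 48.8% GC) and MAX (-0.46, 51.3% GC) lay between, as did MLX (-0.19, 51.8% GC) and MYCL (-0.0064, 56.4% GC). The Spearman correlation of this difference with GC content was -0.83 over the 9 genes and -0.66 over 14987 tested genes, values that share the same library and depth and are given as a description. Over all genes the median difference was 0.26 for transcripts of 40% to 45% GC, 0.10 for those of 45% to 50%, -0.12 for 50% to 55%, -0.41 for 55% to 60% and -0.75 for 60% to 65%. Beside the median of their own bin, MYC, MAX, MLX, MXD4, MNT and MXD3 were lower, and MXD1, MXI1 and MYCL were higher.

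**Figure D3:**
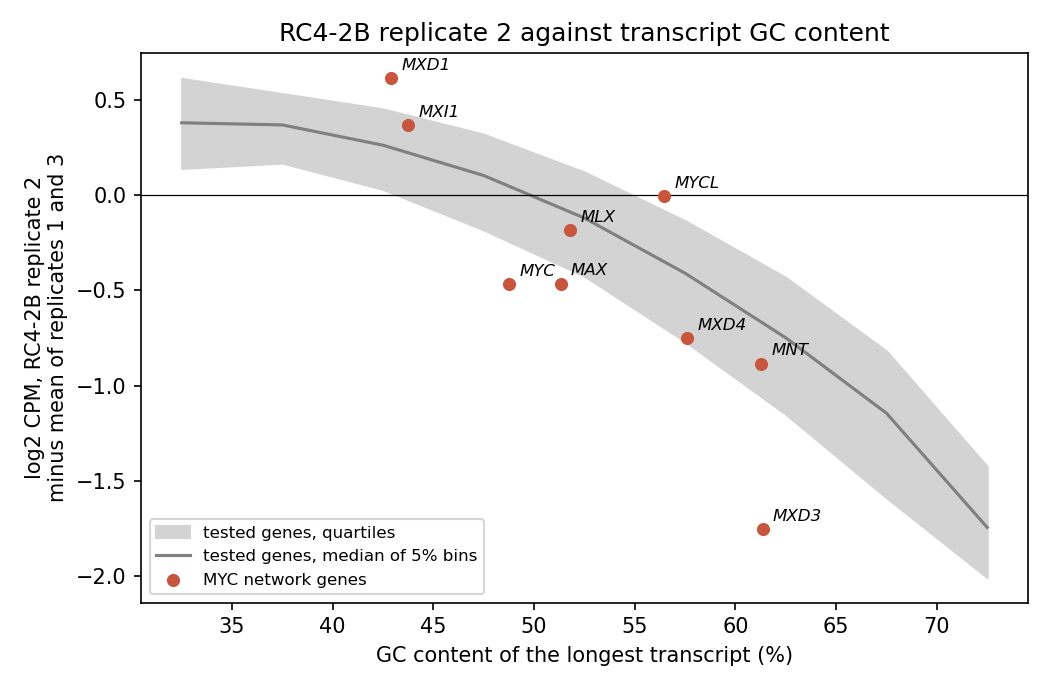
Log2 CPM of RC4-2B replicate 2 minus the mean of replicates 1 and 3 (y axis) against the GC content of the longest transcript in percent (x axis), with the 9 network genes in red and the median and quartiles of all tested genes in bins of GC content in grey. The network genes run from 0.61 for MXD1 at 42.9% GC to -1.75 for MXD3 at 61.3% GC.

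MLX, which pairs with MLXIP, MLXIPL and MNT, lies at chr17:42567068-42573239 on the plus strand and was the second most abundant member per length. Its CPM was 118, 110 and 120 in C4-2B, against 138, 119 and 133 in RC4-2B, with an overlap only between C4-2B replicate 3 and RC4-2B replicate 2. In FPKM it was 24.7, 23.1 and 25.5 against 29.1, 26.2 and 28.2, and the groups did not overlap. The scales differ in their library totals. Gene counts were 96.3% of the FPKM total in RC4-2B replicate 2 and 87.9% to 90.8% in the other libraries. The share of all genes without overlap in FPKM was not computed. The log2FC was 0.16 (SE 0.11, interval -0.08 to 0.41, adjusted p = 0.375, edgeR), and 0.22 (interval 0.0498 to 0.40, adjusted p = 0.0866, edgeR) without RC4-2B replicate 2. It ranged from 0.12 to 0.23 over all settings. PSMC3IP, on the opposite strand with 775 shared exonic bases, had 244 to 364 counts against 1950 to 2262 for MLX. MLX and MNT both lie on chromosome 17. Chromosome medians were taken over tested genes with an average log2 CPM over 2. On chromosome 17 the median log2FC of 704 such genes was 0.17, with 70.6% of them above 0. With GC correction this median was 0.26, and without RC4-2B replicate 2 it was 0.22. For the chromosomes of the other members it was 0.04 to 0.09 with all libraries and -0.03 to 0.02 with GC correction. To 2 decimals, the log2FC of MLX lay at or under the median of its chromosome in these 3 settings, and that of MNT lay under it. The part of this chromosome-wide shift in the values of MLX and MNT was not tested.

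Genes for further partners of MAX or MLX were read from the same fit, and 0 of 3 were called. MGA, a MAX partner of a repressive Polycomb complex, was at 49.3, 60.3 and 58.7 CPM in C4-2B, against 74.98, 87.7 and 80.7 CPM in RC4-2B. The groups did not overlap. The log2FC of 0.53 (SE 0.13, interval 0.24 to 0.82) did not pass the threshold with all libraries (adjusted p = 0.074, edgeR), and passed it without RC4-2B replicate 2 (0.47, adjusted p = 0.00636) and with GC correction (0.39, adjusted p = 0.0345). MLXIP had a log2FC of 0.18 (SE 0.12, adjusted p = 0.372, edgeR), which was 0.38 with GC correction (adjusted p = 0.0505, edgeR). MLXIPL, at 7.62 ± 0.374 and 5.83 ± 2.42 CPM (SD, n = 3), had -0.39 (SE 0.30, adjusted p = 0.439, edgeR), and -0.05 with GC correction.

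The balance between activating and repressing members was compared per length as the FPKM of MYC, MYCN and MYCL in percent of those plus MXD1, MXD3, MXD4, MXI1 and MNT. It was 72.5%, 72.3% and 73.8% in the C4-2B libraries and 70.6%, 70.8% and 70.6% in the RC4-2B libraries. All RC4-2B libraries, replicate 2 included, were below all C4-2B libraries, and the means were 72.9 ± 0.845% and 70.7 ± 0.130% (SD, n = 3). MYC makes up most of the first sum, so the share is not independent of its lower mean, and it was given no test. The share also depends on the repressor sum. The MYC-type sum was 83.0 to 94.4 FPKM in C4-2B, 78.4 and 76.8 in RC4-2B replicates 1 and 3, and 59.0 in replicate 2. The repressor sum was 31.8 to 33.5 FPKM in C4-2B, 32.6 and 31.9 in RC4-2B replicates 1 and 3, and 24.3 in replicate 2. The ratio of MYC to MAX in FPKM was 6.43, 6.62 and 6.52 in C4-2B, against 6.23, 6.10 and 5.98 in RC4-2B, without overlap. The share and the ratio both hold MYC, so they are not separate observations. In CPM, 34.1% of all tested genes did not overlap, and no such value was computed for shares or ratios.

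**Figure D4:**
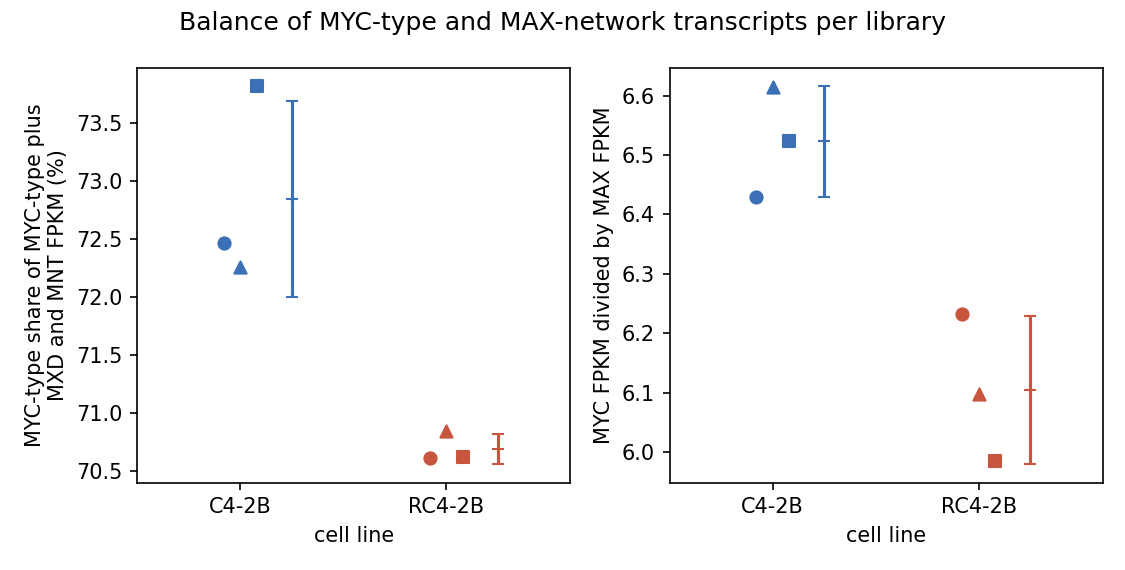
Share of MYC-type FPKM (left, percent) and the ratio of MYC to MAX FPKM (right) in each library, with C4-2B in blue, RC4-2B in red, circles, triangles and squares for replicates 1, 2 and 3, and bars for the mean and SD of 3; neither axis starts at 0. The C4-2B libraries lie at 72.3% to 73.8% and the RC4-2B libraries at 70.6% to 70.8%.

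The genes whose log2 CPM most resembled that of MYC over the 6 libraries, of 12574 ranked by Pearson correlation, were ZNF767P, a zinc finger pseudogene (0.997), ZC3H12A, which encodes an RNA-degrading enzyme (0.996), and FSCN1, which encodes an actin-bundling protein (0.995). None of these 3 passed the test, with log2FC values of -0.53, -0.82 and -0.36, and all had 60.0% to 65.0% GC and their lowest value in RC4-2B replicate 2. Among the members, the correlation with MYC was 0.98 for MAX, 0.94 for MXD4, 0.89 for MXD3 and 0.81 for MNT. It was -0.09 for MLX, -0.37 for MXD1, -0.48 for MYCL and -0.81 for MXI1. These values describe 6 points that share the deviation of 1 library.

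The cofactors and targets of the network were taken as 10 lists with 137 genes, of which 130 were tested. With all libraries, 1 was called higher and 2 lower, or 2.31%, beside the 1.98% of all tested genes. Without RC4-2B replicate 2, 7 were called higher and 10 lower, or 13.1%, beside 12.5% of all genes. With GC correction, 5 were called higher and 2 lower, or 5.38%, beside 7.61%. The share of list genes called was thus near that of all genes in each setting.

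MYC acts through coactivators, and 0 of 16 tested genes of this list were called, with 7 above 0, 9 below and a median log2FC of -0.03 that was 0.16 with GC correction. Without RC4-2B replicate 2 and with GC correction alike, 1 was called higher and 1 lower. WDR5, a chromatin reader that anchors MYC to its targets, was at 151, 147 and 139 CPM in C4-2B, against 104, 89.4 and 109 CPM in RC4-2B. The log2FC of -0.53 (SE 0.11) had an adjusted p-value of 0.0602 in edgeR's test, 0.00267 without RC4-2B replicate 2 and 0.0225 with GC correction. TRRAP, the scaffold of histone acetyltransferase complexes, was at 153, 178 and 169 CPM in C4-2B, against 206, 242 and 223 CPM in RC4-2B. Its log2FC of 0.43 (SE 0.11) had an adjusted p-value of 0.0916, which was 0.011 without that library and 0.0311 with GC correction. For both genes the groups did not overlap, and the values lay on opposite sides of 0.

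The corepressor genes that serve the MXD proteins and MNT showed 0 of 12 called, with 3 above 0, 9 below and a median of -0.13. NCOR1, a nuclear receptor corepressor on chromosome 17, had 188, 225 and 224 CPM in C4-2B, against 263, 399.5 and 281 CPM in RC4-2B, with a log2FC of 0.57 (adjusted p = 0.125, edgeR) that was 0.36 (adjusted p = 0.0161, edgeR) without RC4-2B replicate 2 and 0.45 (adjusted p = 0.0548, edgeR) with GC correction. SAP18, a subunit of the SIN3 complex, had a log2FC of -0.36 (SE 0.14, adjusted p = 0.196, edgeR), and -0.23 (adjusted p = 0.0781, edgeR) without that library.

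The genes listed for the stability of MYC protein showed 0 of 20 called, with 13 above 0, 7 below and a median of 0.16 that was 0.09 with GC correction. HUWE1 and STUB1 encode ubiquitin ligases that act on MYC. HUWE1 was at 284, 337 and 323 CPM in C4-2B, against 411, 522 and 412 CPM in RC4-2B, and its log2FC of 0.51 (SE 0.13) had an adjusted p-value of 0.0831 with all libraries, 0.00679 without RC4-2B replicate 2 and 0.0341 with GC correction. STUB1 was at 182, 164 and 160 CPM in C4-2B, against 131, 112 and 110 CPM in RC4-2B. Its log2FC of -0.52 (adjusted p = 0.0632, edgeR) passed the threshold without that library (-0.49, adjusted p = 0.00394, edgeR). With GC correction it was 0.04 (adjusted p = 0.927, edgeR), so the sign turned for this transcript of 65.0% GC. With GC correction and without that library it was -0.33 (adjusted p = 0.00988, edgeR), a setting chosen after seeing the data.

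Of the genes that MYC activates, those of metabolism and translation held 2 that passed the test, both amino acid transporters with an E-box in the promoter window shown above. SLC1A5, which imports glutamine, was at 201, 190.2 and 182 CPM in C4-2B, against 117, 82.4 and 96.8 CPM in RC4-2B. It fell from 191 ± 9.58 to 98.6 ± 17.2 CPM (SD, n = 3), a log2FC of -0.95 (SE 0.14, adjusted p = 0.0164, edgeR). SLC7A5, which imports large neutral amino acids such as leucine, was at 545, 546 and 493 CPM in C4-2B, against 377, 293 and 330.2 CPM in RC4-2B. It fell from 528 ± 30.02 to 333 ± 41.9 CPM (SD, n = 3), a log2FC of -0.66 (SE 0.12, adjusted p = 0.0299, edgeR). Both kept their direction with GC correction, at -0.62 for SLC1A5 (adjusted p = 0.00916) and at -0.32 for SLC7A5, which then missed the threshold (adjusted p = 0.146). Without RC4-2B replicate 2, SLC1A5 was at -0.84 (adjusted p = 4.9e-05, edgeR) and SLC7A5 at -0.58 (adjusted p = 0.00047, edgeR). Both also passed the threshold without RC4-2B replicate 1 (adjusted p = 0.015 and 0.0307, edgeR). Both missed it when any 1 C4-2B library or RC4-2B replicate 3 was left out. The adjusted p-values were then 0.0818 to 0.119 for SLC1A5 and 0.111 to 0.186 for SLC7A5. In the whole list of 20 genes, 9 were above 0, 11 below and the median was -0.04, and 14 of 18 with a promoter window held the E-box.

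The other activated groups held no call with all libraries. Of 30 ribosome biogenesis genes, 9 were above 0 and 21 below, with a median of -0.07 (-0.11 with GC correction), and 10 of 23 with a window held the E-box. Of these genes, 2 were called lower without RC4-2B replicate 2, and 0 were called with GC correction. The smallest p-values were those of PPAN, which takes part in the maturation of the large ribosomal subunit (-0.96, SE 0.34, adjusted p = 0.171), and of UTP20, of the small subunit processome (0.40, SE 0.15, adjusted p = 0.176). PPAN was at -0.61 (adjusted p = 0.013, edgeR) and UTP20 at 0.25 (adjusted p = 0.0833, edgeR) without that library, and with GC correction they were at -0.68 (adjusted p = 0.0528) and 0.25 (adjusted p = 0.121). Of 9 tested cell cycle genes, 3 were above 0 and 6 below, with a median of -0.25 that was -0.07 with GC correction. MCM5, a subunit of the replicative helicase, had -0.26 (SE 0.11, adjusted p = 0.222), and CKS2, a small subunit of cyclin-dependent kinases, had -0.44 (SE 0.20, adjusted p = 0.247). With GC correction MCM5 was at -0.08 (adjusted p = 0.684) and CKS2 at -0.57 (adjusted p = 0.136). Without RC4-2B replicate 2, MCM5 was at -0.22 (adjusted p = 0.123, edgeR) and CKS2 at -0.33 (adjusted p = 0.183, edgeR). CKS2 passed the threshold without RC4-2B replicate 1 (-0.72, adjusted p = 0.0412, edgeR), a fit that keeps replicate 2. It also passed with GC correction and the replicate block (-0.63, adjusted p = 0.0428, edgeR).

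Among 9 genes that MYC represses, 1 was called and 6 had a log2FC below 0, with a median of -0.31. NDRG1, a stress-responsive gene named for its downregulation by the N-myc protein, was at 173, 159.5 and 168 CPM in C4-2B, against 253, 270.3 and 227 CPM in RC4-2B. All RC4-2B libraries were above all C4-2B libraries. It rose from 167 ± 6.67 to 250.3 ± 21.6 CPM (SD, n = 3), a log2FC of 0.59 (SE 0.11, adjusted p = 0.0325, edgeR), and was 0.63 with GC correction (adjusted p = 0.00599). NDRG1 also passed the threshold without RC4-2B replicate 2 (0.53, adjusted p = 0.00069, edgeR) and without RC4-2B replicate 1 (0.58, adjusted p = 0.049, edgeR). It missed the threshold when any 1 C4-2B library or RC4-2B replicate 3 was left out (adjusted p = 0.0807 to 0.215, edgeR).

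Of 3 tested targets of the MLX partners, 0 were called, with 2 above 0, 1 below and a median of 0.26 that was 0.14 with GC correction. KLF10 and ARRDC4 each had a log2FC of 0.26 (adjusted p = 0.221 and 0.307), and ARRDC4 was at 0.14 with GC correction and 0.17 without C4-2B replicate 1. Of the 13 genes listed around MYC on chromosome 8, 8 were tested and 0 called, with 5 above 0, 3 below and a median of 0.16 that was 0.05 with GC correction. Without RC4-2B replicate 2, 2 of them were called higher and 1 lower, and with GC correction 1 was called higher. PCAT1, a long noncoding RNA of prostate cancer, was at 10.3, 14.9 and 16.2 CPM in C4-2B, against 19.8, 29.8 and 21.8 CPM in RC4-2B, with a log2FC of 0.78 (SE 0.22, adjusted p = 0.109, edgeR). PCAT1 passed the threshold without RC4-2B replicate 2 (0.59, adjusted p = 0.0258), with GC correction (0.68, adjusted p = 0.0431) and with DESeq2 (0.78, adjusted p = 0.0289). It missed the threshold on leaving out any other 1 library (adjusted p = 0.0683 to 0.389, edgeR) and with limma (adjusted p = 0.207 to 0.373). ASAP1, which regulates the actin cytoskeleton and membrane traffic, had 0.49 (SE 0.15, adjusted p = 0.139, edgeR), which was 0.31 (adjusted p = 0.0332, edgeR) without RC4-2B replicate 2 and 0.36 (adjusted p = 0.0638, edgeR) with GC correction.

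**Figure D5:**
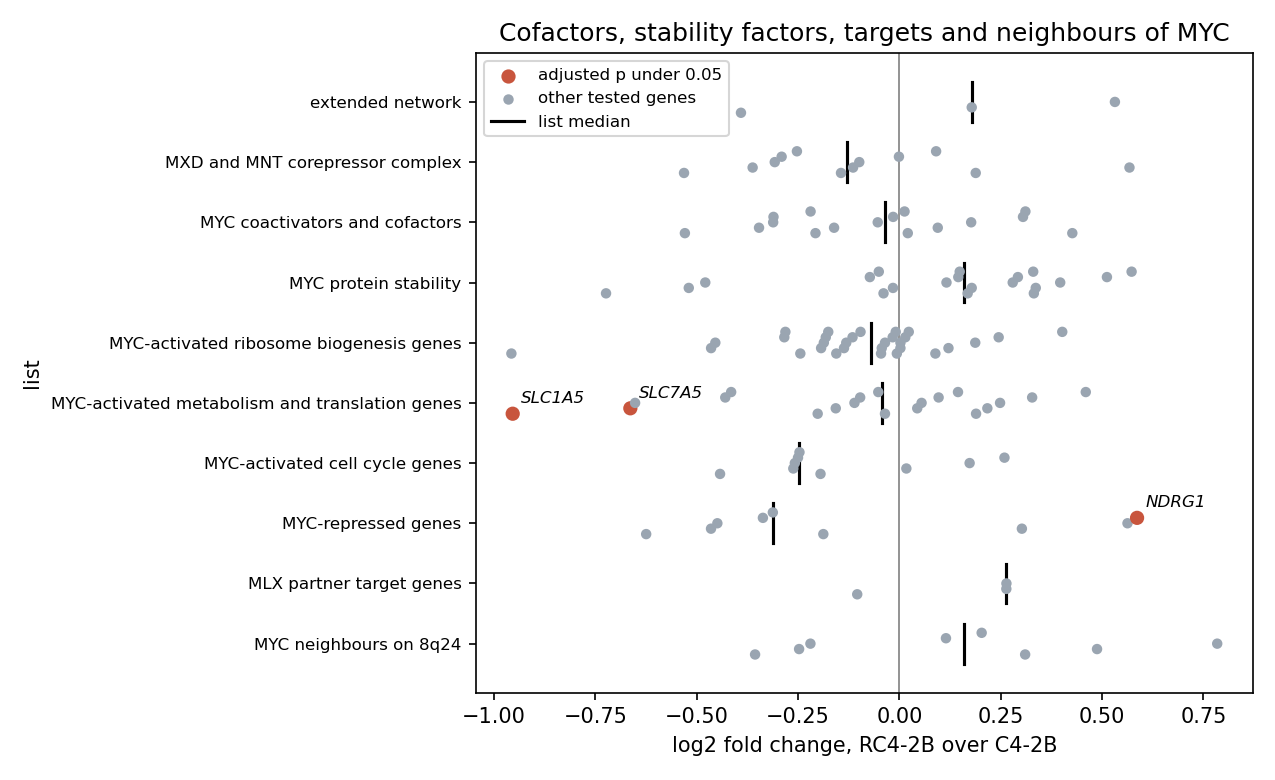
Log2FC of RC4-2B over C4-2B for each tested gene of the 10 lists (x axis; 1 list per line), with a black bar at each list's median and red points for genes with an adjusted p-value under 0.05. Only SLC1A5 (-0.95), SLC7A5 (-0.66) and NDRG1 (0.59) are red.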

How the data were processed

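RNAseq libraries of C4-2B and RC4-2B, with 3 biological replicates each, were compared. With STAR, the authors aligned the reads to GRCh38, and they deposited raw counts of reads per gene for 58735 genes, and FPKM values that the authors made from the same counts, scaled by gene length and a library total of 17878222 to 19817304. Which program counted the reads, whether it used strand and from which annotation release is not given in the sources used here. The study's methods name both charcoal-stripped and fetal bovine serum, and the labels fetal bovine serum.

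The analysis of the counts used edgeR 4.0.16 under R 4.3.3 (TMM scaling, filterByExpr with a minimum of 10 counts, glmQLFit and glmQLFTest, cell line as the only term, Benjamini-Hochberg adjustment, threshold 0.05). Standard errors were derived from the fold change and the F statistic. Alternatives were DESeq2 1.42.0, RLE and upper-quartile scaling, other filters on low counts, a replicate block, leaving out each library, limma 3.58.1 on log2(FPKM + 1) and log2(FPKM + 0.1), and a GC correction (lowess of span 0.2 on the GC content of the longest GENCODE 44 transcript, known for 99.6% of tested genes, entered as an offset), which also removes any GC trend between the cell lines. Depth was 15707134 to 18052517 counts per library, which limits what can be detected to about 0.170 to 0.188 CPM.

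The members and the gene lists were chosen with earlier results of these data known. The text names all members, MGA, MLXIP and MLXIPL, the genes of each other list that passed the threshold, up to 5, or otherwise the 2 with the smallest p-value, KLK3, CHGA and SYP as markers, and the 3 genes most correlated with MYC. Genes that overlap a member, and the fibroblast markers, were named after their values were seen.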

Additional observations from a re-analysis of the deposited data

How the results depend on the processing

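0 members were called in every setting, with edgeR, DESeq2 or limma. Of the other results, 298 of all tested genes and 3 list genes were called with all libraries. These counts were 902 and 8 with DESeq2, 1250 and 14 without a filter on low counts, 1146 and 7 with GC correction, and 2050 and 21 with GC correction and without RC4-2B replicate 2, a setting chosen after seeing the data. With the replicate block they were 129 and 1, and with the GC correction and the replicate block 1207 and 12. The replicate numbers were not taken as pairs in the main fit. For well-expressed genes, each library's deviation from the mean log2 CPM of its own cell line was computed. These deviations correlated at 0.42, 0.24 and -0.099 between same-numbered libraries. Libraries with different numbers were not compared in this way, so the values do not decide whether the numbers mark pairs. With limma the counts of called genes were 104 and 1 on log2(FPKM + 1), 86 and 1 on log2(FPKM + 0.1), and 36 and 0 without a filter. Leaving out 1 library gave 44 to 1925 genes and 0 to 17 list genes. Without RC4-2B replicate 2 the count was 1925, without RC4-2B replicate 1 it was 474, and without any other library 44 to 78. The sign turned for MXD1, whose log2 fold change was -0.29 to 0.11 when 1 library was left out (0.032 without C4-2B replicate 3), and for MXI1, which was -0.013 to 0.21 on leaving out 1 library, -0.012 with GC correction, -0.014 with the block added and -0.066 with GC correction and without RC4-2B replicate 2. MNT was -0.27 to 0.16 when 1 library was left out, 0.21 with GC correction, 0.21 with the block added and 0.27 with GC correction and without RC4-2B replicate 2. In that last setting MXD4 was 0.049 and MLXIPL 0.035. STUB1 was 0.039 with GC correction, -0.026 with the block added and -0.33 in that last setting. The cause of these turns was not tested. With the block, SLC7A5 and NDRG1 missed the threshold (adjusted p = 0.0548 and 0.069, edgeR). MGA, WDR5, STUB1 and HUWE1 passed it with DESeq2 (adjusted p = 0.0218, 0.00621, 0.00811 and 0.0353), as did PCAT1. Over the members and alternatives, 151 values kept their direction and 11 turned. Of the values of the other named list genes, 287 kept their direction and their side of the threshold, 48 passed it newly, 23 missed it and 2 turned. Depth limits statements about MYCN, at 0 counts in all 6 libraries.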
